A study of Homo sapiens with 6 samples.

Results

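The facilitative glucose transporters are membrane proteins of the SLC2A family that let sugars cross the cell membrane down their concentration gradient. Peaks of histone H4 lysine 5 lactylation (H4K5la) were described here at 10 of their genes, SLC2A1, SLC2A2, SLC2A3, SLC2A4, SLC2A5, SLC2A6, SLC2A8, SLC2A9, SLC2A10 and SLC2A12. These were set among all 19974 protein-coding genes on chromosomes 1 to 22 and X. Members were listed by gene family, and a peak was assigned to a gene when it shared at least 1 bp with the RefSeq span plus 5 kb on either side, on hg38. Chromatin came from PLC/PRF/5, an established human hepatocellular carcinoma line, precipitated with an antibody against H4K5la. The control group was left untreated (replicates 2 and 3), and the lactate group was cultured with 20 mM lactate for 24 h (replicates 2 and 3). Each treatment also had 1 input library, which has no antibody and was not analysed here.

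Family members differ in substrate, affinity and tissue. SLC2A1 (GLUT1) supplies basal glucose to most dividing cells and is often abundant in tumours, while SLC2A2 (GLUT2) is the low-affinity transporter of hepatocytes. H4K5la is an acyl mark on histone tails that is made from lactate, the end product of glycolysis, and the glucose carriers of the family supply that pathway with its substrate. A peak marks a place where the mark passed the caller's threshold. It does not measure transcription, and a window with no peak may carry the mark below that threshold.

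Nothing in the labels says that the replicates came from separate cultures, so every p-value below reflects library-to-library spread, part of which may be technical. The exact permutation test (two-sided) of 2 against 2 libraries has 6 assignments, and its smallest p is 0.333. No difference below could therefore pass a threshold of 0.05. The 4 lists held 37951 to 52959 peaks covering 21.8 to 41.0 Mb, and both lactate lists were shorter than both control lists. Reads at each summit were recovered from the authors' fold enrichment and p-value, as whole numbers for 100% of the peaks in each list (within 0.001 on the −log10 p). The median summit held 23 reads in either control library, 21 in lactate replicate 2 and 24 in lactate replicate 3. The genome-wide floor of the background, in reads at a position, was 1.19 and 1.12 in control and 0.927 and 1.01 under lactate. Each treatment had 1 input library, so the local background values of its 2 libraries may not be separate observations. Among fixed hepatocyte genes, HNF4A and APOA1 had peaks in all 4 libraries, while ALB, AFP, APOB, TTR, FOXA2 and KRT18 had none. Of 4 endothelial and stromal genes, 3 had peaks in all 4 libraries, as did 1 of 4 blood cell genes. The same held for 3 of 11 hepatocyte and liver cancer genes and for 33.0% of all coding genes. No difference between these lists was tested. Expression was not analysed here.

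Promoters are shown to place the peaks against the start sites. Of the 10 genes, 8 matched the RefSeq promoter table (GRCh38.p14). None of these 8 had a peak in 2 or more libraries over its promoter, taken from 250 bases before to 50 after the start site, against 10.8% of 15812 coding genes. At that share, a count of 0 among 8 genes was near the background. SLC2A3 and SLC2A4 had no listed start site and were not counted. Both control libraries had a peak over the lower end of SLC2A4 (7281718). Among the 8 listed genes, the nearest peaks belonged to SLC2A9 and SLC2A2. Below are the 250 bases before the start site, 5′ to 3′, for these 2 genes, and for SLC2A1, whose nearest summit lay 22.3 kb away. They were chosen after their values were seen. Capitals mark GGGCGG or its reverse complement, the GC box read by SP1-type factors.
SLC2A9, the inner start site at 10021497 (chr4:10021498-10021747, minus strand): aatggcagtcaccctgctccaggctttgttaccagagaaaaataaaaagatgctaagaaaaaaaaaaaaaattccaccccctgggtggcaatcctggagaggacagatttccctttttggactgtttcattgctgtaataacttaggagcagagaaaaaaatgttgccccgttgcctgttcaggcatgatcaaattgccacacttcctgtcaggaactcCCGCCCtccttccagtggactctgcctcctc
SLC2A2 (chr3:171026721-171026970, minus strand): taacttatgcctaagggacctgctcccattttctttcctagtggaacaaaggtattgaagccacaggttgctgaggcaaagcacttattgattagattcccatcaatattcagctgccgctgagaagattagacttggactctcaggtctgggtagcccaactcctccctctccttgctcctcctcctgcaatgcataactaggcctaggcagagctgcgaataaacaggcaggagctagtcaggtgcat
SLC2A1 (chr1:42958869-42959118, minus strand): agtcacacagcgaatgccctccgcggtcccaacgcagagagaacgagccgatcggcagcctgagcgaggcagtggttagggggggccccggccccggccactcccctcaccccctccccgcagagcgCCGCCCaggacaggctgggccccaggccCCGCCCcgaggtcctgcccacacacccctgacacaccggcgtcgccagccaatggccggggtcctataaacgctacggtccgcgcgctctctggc

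These 3 stretches differed in composition. G and C made up 72.4% of the SLC2A1 stretch, 48.8% of the SLC2A2 stretch and 46% of the SLC2A9 stretch, where the median over 22156 listed promoters of coding genes was 62%. GGGCGG was found 2 times before SLC2A1 and 1 time before the inner SLC2A9 start. SLC2A2 had none, and 53.7% of all listed promoters held at least 1. ACGTG, the core of the hypoxia response element, was searched on both strands and is held by 20.2% of listed promoters. None of the 3 stretches held it, and the same was true of CACGTG, the E-box that contains it, which 7.37% of promoters hold. Among the other members, ACGTG occurred 1 time before SLC2A10 and 1 time before the outer SLC2A9 start. A match describes the letters and not a bound site.

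Over all 10 windows, peaks were found at 9 genes and none at SLC2A3. The windows held 18 and 21 peaks in control replicates 2 and 3, and 16 and 12 in lactate replicates 2 and 3. They covered 18277 and 19510 bp in control, against 8803 and 8007 bp under lactate. A peak was present in all 4 libraries at 6 of 10 genes (SLC2A1, SLC2A2, SLC2A4, SLC2A6, SLC2A9 and SLC2A10), against 33.0% of all coding genes. No peak in any library was found at 1 gene, against 40.6% of coding genes. The median window of the 10 genes was 39.2 kb, where that of all coding genes was 34.2 kb.

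In both lactate libraries, peaks covered less of the window than in either control library at 6 genes, SLC2A1, SLC2A4, SLC2A5, SLC2A6, SLC2A8 and SLC2A9. Coverage in this order held for 32.8% of all coding genes. Among genes with a peak in any library it held for 6 of 9 members and for 55.1% of 11870 coding genes. SLC2A10 was the 1 gene with more coverage in both lactate libraries, a pattern of 3.40% of all coding genes and 5.72% of those with a peak. SLC2A2 and SLC2A12 overlapped between the groups. The median log2 ratio of lactate to control coverage, with 100 bp added to each mean, was -1.32 over the 9 genes and -0.85 over all coding genes with a peak. Over 9 genes, 55.1% comes to about 5, so the count of 6 was near the background.

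**Figure D1:**
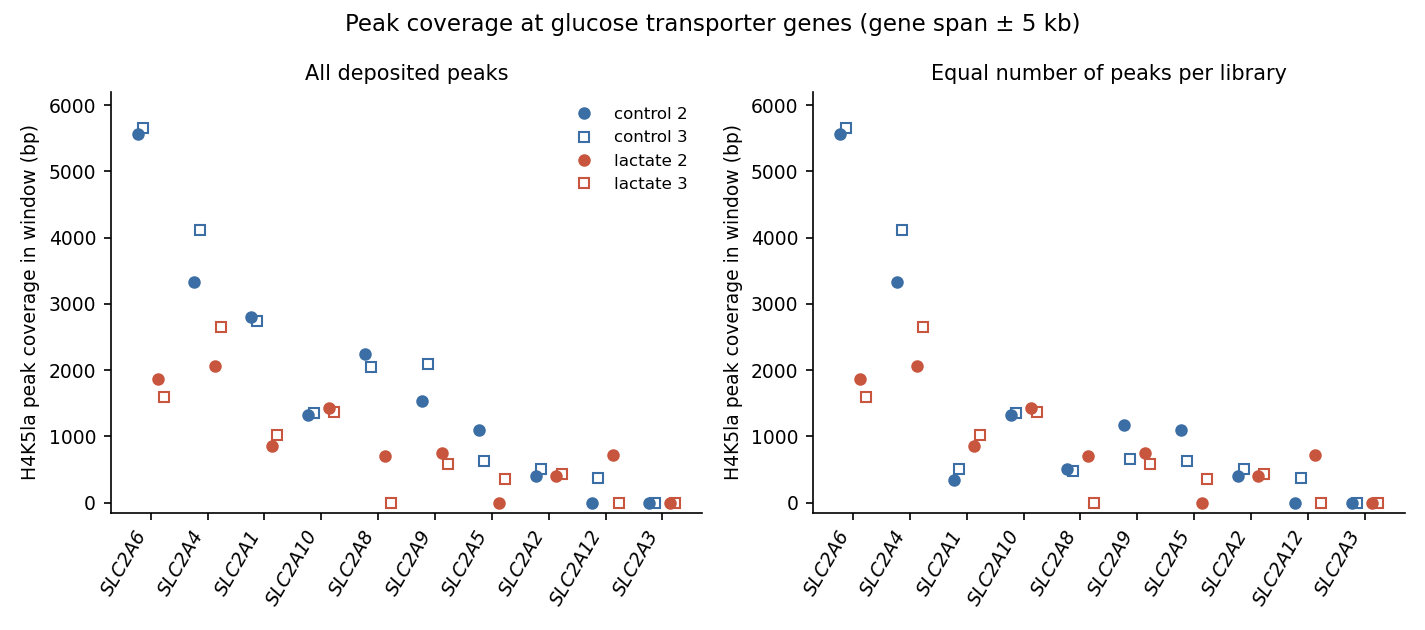
H4K5la peak coverage in bp (y axis) in the window of each transporter gene (x axis) for the 2 control (blue) and 2 lactate (red) libraries; filled circles are replicate 2 and open squares replicate 3. The left panel uses all deposited peaks, with SLC2A6 between 5563 and 5658 bp in control and 1600 and 1870 bp under lactate; the right panel uses 37951 peaks per library, where SLC2A1 is higher in both lactate libraries and SLC2A6 has the same values.

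With every list shortened to the length of the shortest, keeping the 37951 peaks with the largest −log10 p, the count of genes with less coverage in both lactate libraries went from 6 to 3. These were SLC2A4, SLC2A5 and SLC2A6, and the same setting gave 21.0% of coding genes. SLC2A10 and SLC2A1 then had more coverage in both lactate libraries, a pattern of 6.89% of coding genes. The number of peaks per list and the treatment therefore cannot be told apart at SLC2A1.

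**Figure D2:**
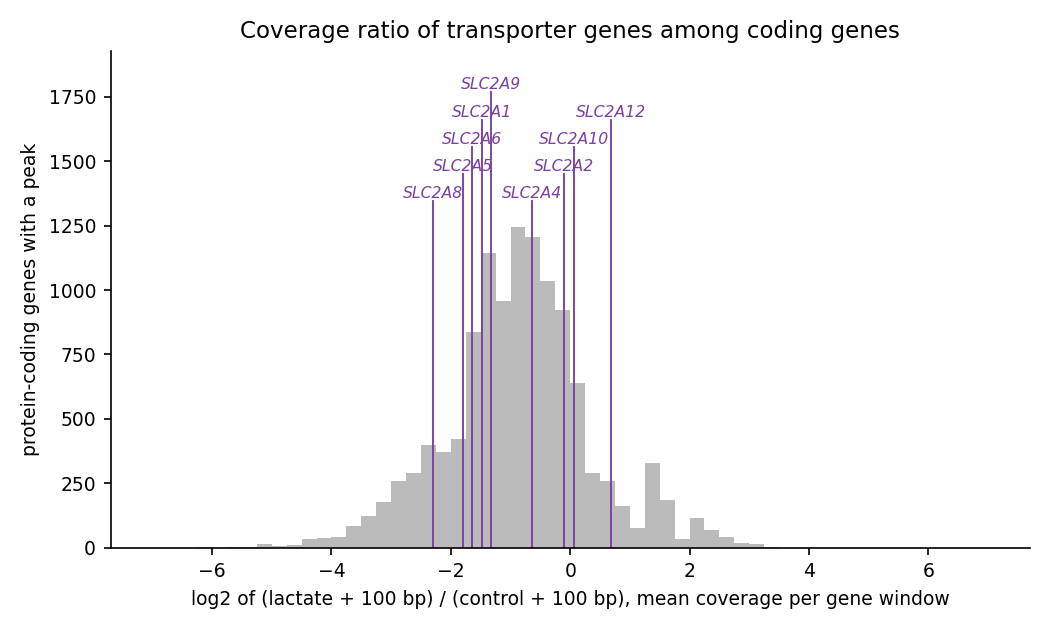
Log2 ratio of lactate to control coverage per gene window, with 100 bp added to each mean (x axis), for 11870 protein-coding genes with a peak in any library (grey bars, number of genes on the y axis). Purple lines mark the 9 transporter genes with a peak, from SLC2A8 at -2.30 to SLC2A12 at 0.68, spread over the body of the distribution.

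Class I of the family holds the classic glucose carriers SLC2A1 to SLC2A4, and at SLC2A1 the peaks differed in number and in place between the treatments. SLC2A1 spans 42925353 to 42958868 on chromosome 1 and is read from the upper end. Its window held 4 and 6 peaks in control replicates 2 and 3, and 2 in either lactate library. They covered 2800 and 2747 bp in control, against 854 and 1019 bp under lactate, so the groups did not overlap. The means were 2773.5 ± 37.5 bp and 936.5 ± 117 bp (SD, n = 2), a ratio of 0.338, and the difference was 15.7 times the larger SD (exact permutation p = 0.333). At equal list lengths of 37951 peaks the order was turned, with 335 and 507 bp in control and 854 and 1019 bp under lactate (exact permutation p = 0.333).

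Every SLC2A1 peak lay in the lower part of the window, with summits 22.3 to 34.3 kb downstream of the start site. Merging the 4 lists gave 7 regions there. The region just beyond the lower, 3′ end (42924148 to 42925055) was held by all 4 libraries, with 14 and 14 summit reads in control and 18 and 16 under lactate. These summits lay at 42924702 and 42924597 in control and at 42924885 and 42924957 under lactate. The local background there was 1 and 1 times the genome-wide floor in control and 2.52 and 2.60 times under lactate. The part of this background in the narrower lactate peaks was not tested.

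Inside SLC2A1, 2 regions were held by both control libraries and neither lactate library, at 42929663 to 42931047 and at 42936377 to 42936745. The first held the strongest SLC2A1 peak, with 30 summit reads (exact Poisson 95% interval 20.2 to 42.8) in control replicate 3 and a fold enrichment of 12.8. The peak of control replicate 2 (42929755 to 42931047) also covered that position, but its own summit, with 15 reads, lay beside a second, weaker summit of control replicate 3, with 14 reads. Between these 2 regions, the stretch 42932097 to 42932425 was held by both lactate libraries alone, with 14 reads (7.65 to 23.5) and 19 reads (11.4 to 29.7). Exonic and intronic positions were not assigned, because the gene table gives no exons.

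**Figure D3:**
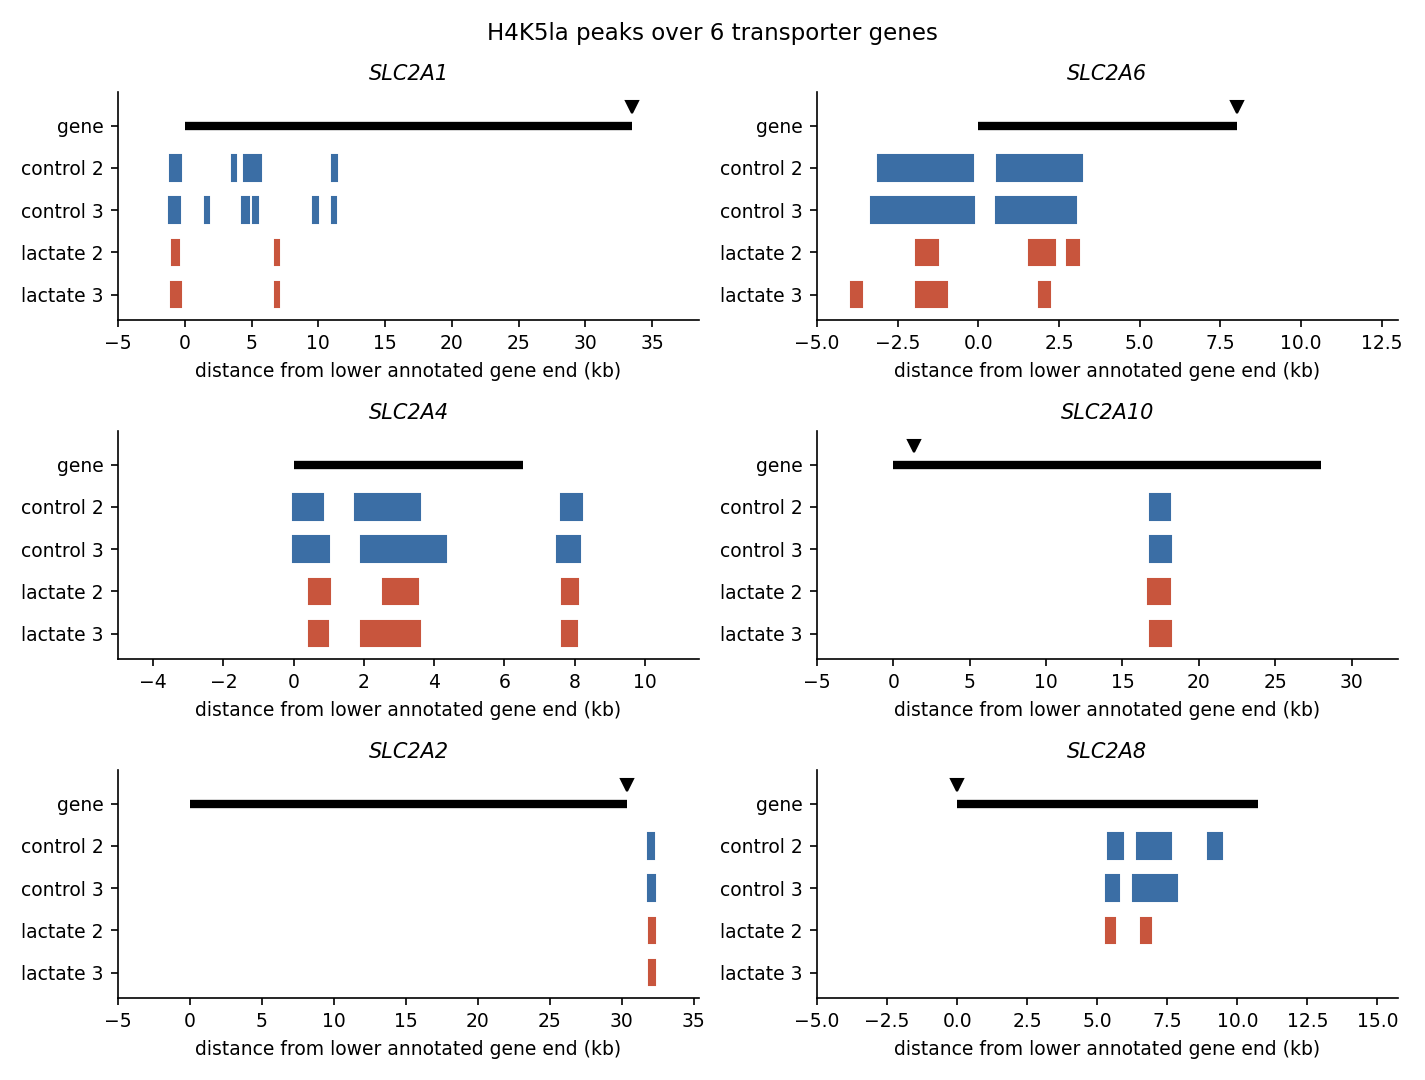
Peaks of the 4 libraries (blue, control; red, lactate) over 6 transporter genes, by distance in kb from the lower annotated end of the gene (x axis); the black bar is the gene and the triangle a listed start site, which is drawn for 5 of the genes. SLC2A6 and SLC2A4 peaks are narrower in the lactate rows, SLC2A10 and SLC2A2 peaks have nearly the same bounds in every row, and the SLC2A1 peaks lie away from the start site.

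SLC2A2, the main glucose transporter gene of hepatocytes, spans 170996347 to 171026720 on chromosome 3. Its window held 1 peak in each library, all in 1 region upstream of the gene (171028149 to 171028648). Summits lay 1.71 to 1.74 kb before the start site, beyond the upper end and in no coding gene. The peak was 405 and 500 bp wide in control and 401 and 426 bp wide under lactate. Coverage was 452.5 ± 67.2 bp against 413.5 ± 17.7 bp (SD, n = 2), and the groups overlapped (exact permutation p = 0.667). The fold enrichment, which describes each list, was 8.68 and 12.4 in control and 17.7 and 13.6 under lactate. Summit reads numbered 25 and 34 in control and 39 and 33 under lactate. The local background was 1.37 and 1.36 times the floor in control and 1.19 and 1.19 times under lactate. These values rest on similar bounds in every library, as the map of peaks over 6 genes shows.

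SLC2A3 (GLUT3), the high-affinity transporter of neurons, had no peak in any library over 7919230 to 7936187 of chromosome 12 and its flanks. SLC2A14, its near copy on the same chromosome, had none either. How reads that map to both copies were treated is not given in the sources used here, so both are uncertain.

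SLC2A4 (GLUT4), the insulin-responsive transporter of muscle and fat, spans 7281718 to 7288257 on chromosome 17. Every library had 3 peaks, in 3 regions that all 4 libraries held. Coverage was 3325 and 4120 bp in control and 2064 and 2650 bp under lactate, without overlap. The means were 3722.5 ± 562 bp and 2357 ± 414 bp (SD, n = 2), or 0.633 times the control level (exact permutation p = 0.333). As a share of the window, 20.1% and 24.9% lay in peaks in control and 12.5% and 16.0% under lactate.

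The widest SLC2A4 peak lay within the gene (region 7283453 to 7286060). It was 1848 and 2438 bp wide in control and 996 and 1681 bp wide under lactate. Its summits held 32 and 33 reads in control and 28 and 27 under lactate. The local background there was 1.20 and 1.20 times the floor in control and 2.52 and 2.60 times under lactate. The control summits lay at 7284546 and 7284392 and the lactate summits at 7285102 and 7285105, so different positions were compared. A peak at the lower end of the gene was 876 and 1024 bp wide in control and 610 and 530 bp wide under lactate. Both control peaks covered the end itself (7281718), while the lactate peaks began at 7282145 and 7282154. No start site was listed for SLC2A4, so a peak over its promoter was not tested. The local background of this peak was 1.59 and 1.63 times the floor in control and 1.03 and 1.58 times under lactate. The third peak lay inside the neighbouring gene YBX2, which encodes a germ cell RNA-binding protein, and was 601 and 658 bp wide in control and 458 and 439 bp wide under lactate. It therefore cannot be assigned to SLC2A4 alone. Its local background was 2.50 and 2.46 times the floor in control and 3.78 and 3.89 times under lactate.

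The class II members among the 10 genes were SLC2A5, the fructose transporter, and SLC2A9, a urate transporter of liver and kidney. SLC2A5 spans 9035106 to 9094195 on chromosome 1, and its peak lay below the gene, outside every coding gene (region 9031402 to 9032499). Coverage was 1098 and 624 bp in control libraries, 0 bp in lactate replicate 2 and 354 bp in lactate replicate 3. The means were 861 ± 335 bp and 177 ± 250 bp (SD, n = 2; exact permutation p = 0.333), and the gene itself held no peak.

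SLC2A9 is the longest of the 10 genes, at 269 kb on chromosome 4 (9771025 to 10040270). Coverage was 1532 and 2086 bp in control and 748 and 584 bp under lactate, 0.209 to 0.747% of the window. The means were 1809 ± 392 bp and 666 ± 116 bp (SD, n = 2), or 0.368 times the control level (exact permutation p = 0.333). At equal list lengths the groups overlapped, at 1170 and 657 bp in control and 748 and 584 bp under lactate. Its peaks fell in 6 regions, none of which was held by all 4 libraries, although each library had at least 1 peak. The region 10020749 to 10021417 lay just downstream of the inner start site whose promoter is printed above, and was held by both control libraries and lactate replicate 3. The nearest edge of its peaks was 80 and 92 bp from the start in control and 132 bp in lactate replicate 3. Summit reads there numbered 22 and 24 in control and 22 in lactate replicate 3.

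The class III members were SLC2A6, SLC2A8, SLC2A10 and SLC2A12, several of which act mainly on internal membranes. SLC2A6 had the largest mean window coverage of the 10 genes. It spans 133471094 to 133479099 on chromosome 9 and its lower, 3′ end lies next to CACFD1, a calcium channel flower homologue. Coverage was 5563 and 5658 bp in control and 1870 and 1600 bp under lactate, without overlap. Of the control coverage, 2920 and 3199 bp lay outside the gene, in peaks with summits in CACFD1. The rank is therefore one of windows and not of genes alone. The means were 5610.5 ± 67.2 bp and 1735 ± 191 bp (SD, n = 2), a ratio of 0.309, and the difference was 20.3 times the larger SD (exact permutation p = 0.333). The number of peaks went the other way, with 2 in either control library and 3 in either lactate library (exact permutation p = 0.333). The added peak was not the same one in the 2 lactate libraries. With a flank of 20 kb this difference in number was -2 peaks. With a −log10 q of at least 5, or with the gene span alone, it was 0.5 peaks.

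Inside SLC2A6, control replicates 2 and 3 had a peak of 2643 and 2459 bp, where lactate replicate 2 had peaks of 823 and 360 bp and lactate replicate 3 a peak of 323 bp. The highest summit there held 28 and 34 reads in control and 28 and 33 reads under lactate. These summits lay at 133474098 and 133473958 in control and at 133474026 and 133473178 under lactate. Lactate replicate 3 was thus read at a different position from the others. The local background differed, at 2.47 and 2.09 times the floor in control and 6.29 and 5.62 times under lactate. The fold enrichment of the same summits was 6.76 and 9.64 in control and 4.17 and 4.90 under lactate. The part of the background in the narrower peaks was not tested. Which control track gave the local background is not given in the sources used here. If each treatment's own input library was used, a difference between the inputs and the treatment cannot be told apart.

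The second domain of the SLC2A6 window lay below the gene, with its summits in CACFD1, so it cannot be assigned to SLC2A6 alone. It was 2920 and 3199 bp wide in control, and its widest lactate peaks were 687 and 946 bp. Its highest summit held 28 and 29 reads in control and 17 and 17 under lactate, over a background of 1 and 1 times the floor in control and 1.74 and 1.74 times under lactate. Here the summit reads were lower in both lactate libraries than in either control library. The local background was higher, but the 2 values of a treatment may rest on 1 input library. The control summits lay at 133469943 and 133469189 and both lactate summits at 133469703, so different positions were compared. All SLC2A6 peaks lay at least 4785 bp from the start site.

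**Figure D4:**
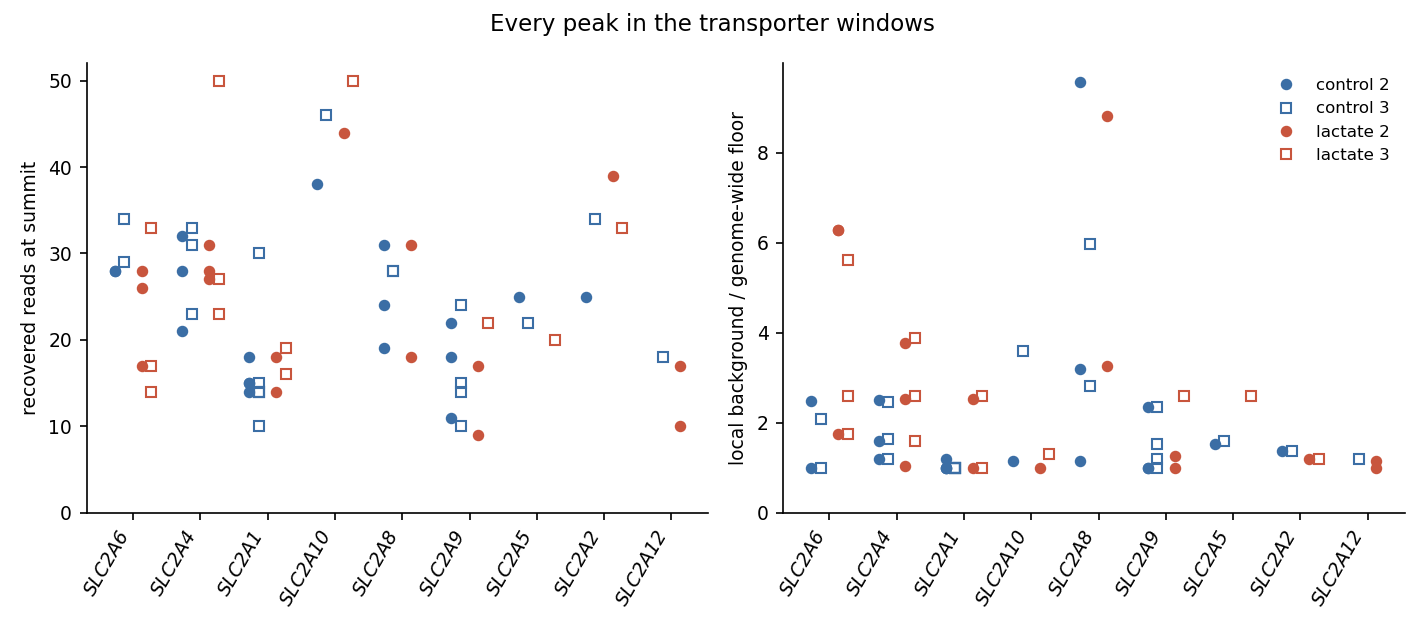
Every peak in the transporter windows, with recovered reads at the summit (left y axis) and the caller's local background as a multiple of the genome-wide floor (right y axis) for each gene (x axis); blue is control, red lactate, filled circles replicate 2 and open squares replicate 3. Inside SLC2A6 the background reaches 5.62 and 6.29 in the lactate libraries against at most 2.47 in the control libraries. The highest reads there are 34 and 33, at different positions. A point can hide another of the same value.

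SLC2A8, an intracellular hexose transporter, spans 127397169 to 127407898 on chromosome 9. Its window held 3 and 2 peaks in control, 2 in lactate replicate 2 and 0 in lactate replicate 3. Coverage was 2239 and 2044 bp in control and 709 and 0 bp under lactate. The means were 2141.5 ± 138 bp and 354.5 ± 501 bp (SD, n = 2), a ratio of 0.166, the lowest of the 9 genes (exact permutation p = 0.333). These peaks were weak for their lists, since the fold enrichment of 6 of 7 lay at percentile 33.1 or lower of its library. Their local background was 1.14 to 9.57 times the floor. In the region 127403456 to 127405025 it was 9.57 and 5.98 times in control and 3.25 times in lactate replicate 2. The control summits there lay at 127404773 and 127404680 and the lactate summit at 127403868, so different positions were compared. In the region 127402467 to 127403094 the background had the reverse order, at 3.19 and 2.81 times in control and 8.81 times in lactate replicate 2. Its summits lay closer together, at 127402587 and 127402654 in control and 127402596 in lactate replicate 2. With 37951 peaks per library, and with a −log10 q of at least 5, the groups overlapped, at 502 and 474 bp in control and 709 and 0 bp under lactate. The difference was then -133.5 bp in place of -1787 bp.

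SLC2A10, whose loss causes arterial tortuosity syndrome, differed from SLC2A6 in that its peak had almost the same bounds in every library. The gene spans 46708320 to 46736347 on chromosome 20, and its 1 peak per library lay inside it, with summits 15.7 to 16.6 kb downstream of the start site (region 46725020 to 46726497). Coverage was 1315 and 1353 bp in control and 1434 and 1374 bp under lactate. The means were 1334 ± 26.9 bp and 1404 ± 42.4 bp (SD, n = 2), a ratio of 1.05 and a difference of 1.65 times the larger SD (exact permutation p = 0.333). With a flank of 20 kb in place of 5 kb the difference was -734 bp, so the direction was turned.

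The SLC2A10 peak was among the strongest of both lactate lists. Its fold enrichment was 14.2 and 8.86 in control and 21.6 and 19.5 under lactate, at percentiles 98.6, 67.7, 99.9 and 99.7 of each list. The percentiles describe ranks within lists of unequal length and do not measure a change. Summit reads numbered 38 (26.9 to 52.2) and 46 (33.7 to 61.4) in control and 44 (32.0 to 59.1) and 50 (37.1 to 65.9) under lactate, with intervals that overlap. The local background was 1.14 and 3.59 times the floor in control and 1 and 1.30 times under lactate. At its own summit, control replicate 3 thus stood apart in background and in fold enrichment, but not in reads. The summits lay at 46725985 and 46725347 in control and at 46725306 and 46726221 under lactate. These values were therefore not all taken at the same position.

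SLC2A12, an insulin-sensitive transporter first described in breast cancer cells, had peaks that did not recur between replicates. Coverage was 0 and 378 bp in control and 723 and 0 bp under lactate, so 1 library of each treatment had a peak (exact permutation p = 1). Control replicate 3 and lactate replicate 2 shared the region 134023835 to 134024276 on chromosome 6, with 18 and 17 summit reads.

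By region, the 10 windows held 27 merged regions. All 4 libraries held 8 of them, or 29.6%, against 28.8% of the 71122 regions of the genome. Both control libraries and neither lactate library held 2, both in SLC2A1, against 14.6% of all regions. Both lactate libraries and neither control library held 1, also in SLC2A1, against 2.75% of all regions. A single library held 10 of the 27, or 37%, against 31.4% of all regions. At equal list lengths the control libraries alone held 0 (8.18% of all regions) and the lactate libraries alone 2 (6.29%).

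By mean coverage over the 4 libraries the order was SLC2A6, SLC2A4, SLC2A1, SLC2A10, SLC2A8, SLC2A9, SLC2A5, SLC2A2, SLC2A12 and SLC2A3. SLC2A6 led in either control library, whereas SLC2A4 led in either lactate library. Both windows include peaks with summits in a neighbouring gene, CACFD1 for SLC2A6 and YBX2 for SLC2A4, so this order is one of windows. In the control libraries SLC2A8 and SLC2A9 were neighbours whose values overlapped. SLC2A10 and SLC2A1 did not overlap in either treatment, and SLC2A1 was the higher of the pair in control and the lower under lactate. At equal list lengths SLC2A1, with 335 and 507 bp in control, was the lower of the pair in both treatments. The coding genes whose 4 values were nearest to those of SLC2A6, by Euclidean distance on log2 of coverage plus 100 bp, were NKPD1 (0.229), ULK1 (0.279) and MAPK8IP3 (0.309). NKPD1 had 5207 and 5335 bp in control and 2037 and 1788 bp under lactate.

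The 4 other genes of the family split evenly. SLC2A7 had 3212 and 2550 bp in control and 1528 and 2347 bp under lactate. SLC2A11 had 3200 and 1699 bp against 1521 and 1672 bp, so both were lower in both lactate libraries, a pattern of 32.8% of all coding genes and 55.1% of those with a peak. SLC2A13, the proton-coupled inositol transporter, and SLC2A14 had no peak in any library.

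Of 7 sodium-coupled sugar transporter genes, 4 had a peak in all 4 libraries, 2 were lower in both lactate libraries and 1 was higher. Beside these stand 33.0%, 32.8% and 3.40% of all coding genes, or 55.1% lower and 5.72% higher among those with a peak. SLC5A10 carried the most, with 22483 and 23817 bp in control and 12003 and 13063 bp under lactate. SLC5A4 had 4448 and 4331 bp against 2323 and 1308 bp. SLC5A1, the intestinal glucose transporter gene, overlapped, with 516 and 480 bp against 572 and 457 bp. SLC5A9 was the higher gene, named after its values were seen, with no control peak and 413 and 360 bp in the lactate libraries.

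Of 22 genes that regulate the expression or traffic of glucose transporters, 12 had less coverage in both lactate libraries and none had more. Another 6 overlapped and 4 had no peak, among them TXNIP, which drives the removal of SLC2A1 from the cell surface. Among those with a peak the lower genes were 12 of 18, beside the 55.1% of coding genes given above. The higher genes were 0 of 18, beside 5.72%, so that count was near the background. No peak in any library was found at 40.6% of all coding genes. AKT2, the kinase that relays insulin signals to SLC2A4, had 14624 and 13261 bp in control and 8868 and 8434 bp under lactate. ASPSCR1, which tethers SLC2A4 inside the cell, had 6754 and 13095 bp against 802 and 1405 bp. AKT1 had 5422 and 6197 bp against 475 and 1991 bp.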

How the data were processed

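H4K5la was measured by ChIP-seq in 2 control and 2 lactate libraries of PLC/PRF/5 cells that have a peak list. The submitters' processing notes name Trimmomatic 0.38, Bowtie2 2.3.4.2, Picard 2.18.11 and MACS2 2.2.6, on hg38; calling parameters are not given in the sources used here. Each deposited list holds 1 library. The authors' deposited columns give position, an integer score (unused), a fold enrichment ratio, and p-values and q-values as −log10, the smallest −log10 q being 2.00 to 2.02.

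Coverage is the bp of a gene window (span plus 5 kb) inside peaks. Reads at a summit were solved from the fold and −log10 p under the caller's formulas; they cover counting error only. Recovery and coverage were tested on simulated data. Gene spans were RefSeq's (GRCh38.p14). Genes were compared by the exact permutation test over libraries (smallest p 0.333). Python 3.11.15, numpy 2.4.6, pandas 2.3.3, scipy 1.17.1 and matplotlib 3.10.9 were used. All 10 members are named; from other lists the rule names up to 3 genes by mean coverage. Members and lists were chosen with earlier results of these data known. Other settings were a −log10 q of at least 5, 37951 peaks per library, flanks of 0 and 20 kb, summit assignment, joining within 1 kb, a reciprocal overlap of 50%, each library left out, and a replicate block.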

Additional observations from a re-analysis of the deposited data

How the results depend on the processing

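Summits in the transporter windows rest on 9 to 50 reads, which limits what a missing peak can say. Of 97 alternative values of coverage per gene, 92 kept their direction and 5 turned, and some that kept it moved by over 1.5 times. Differences below are lactate minus control. At equal list lengths, SLC2A1 gave 515.5 bp and 1 peak, in place of -1837 bp and -3 peaks, SLC2A8 gave -133.5 bp (from -1787 bp), SLC2A9 -247.5 bp (from -1143 bp), and both gave 0 peaks. The same setting gave 3 genes lower and 2 higher in both lactate libraries, 0 regions of the control libraries alone and 2 of the lactate libraries alone. A flank of 20 kb gave SLC2A10 -734 bp and -2 peaks, SLC2A2 -205 bp and -0.5 peaks, SLC2A6 -9510.5 bp (from -3875.5 bp) and -2 peaks, SLC2A5 -2324 bp (from -684 bp), and 0 genes higher in both lactate libraries. A −log10 q of at least 5 gave 0 peaks for SLC2A8 and SLC2A12, with -133.5 bp and 13.5 bp. The gene span without flanks gave SLC2A6 -1798 bp. Joining peaks within 1 kb gave SLC2A4 0.5 peaks. A reciprocal overlap of 50% gave 5 regions of the control libraries alone and 2 of the lactate libraries alone. The cause of these shifts was not tested. Leaving out 1 library gave -86.5 to 8.5 bp for SLC2A2, turned without control replicate 3, and -189 to 534 bp and -0.5 to 1.5 peaks for SLC2A12, turned without control replicate 2 or lactate replicate 2. It gave -921 to -447 bp (the latter without control replicate 2) and -1 to 0 peaks for SLC2A5, 40 to 100 bp for SLC2A10 (the former without lactate replicate 2), and 1 to 2 genes higher in both lactate libraries. With 1 library of each treatment per number, the replicate block gives the same mean difference by construction (SLC2A1 -1837 bp, exact sign-flip p = 0.5, the smallest it allows), so it says nothing about stability, and 9 of the 92 values above are of this kind. The labels give only a shared number, and same-numbered libraries deviated together with a correlation of 0.126 across 11870 genes, which are not independent.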
